A study of Mus musculus with 18 samples.

Results

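The genes described are 10 of the 56748 in the count files: 8 genes that encode selenoproteins (Gpx1, Msrb1, Selenok, Selenow, Selenot, Selenof, Selenos and Sephs2) and 2 that encode factors of selenocysteine insertion (Secisbp2 and Eefsec). They were taken by symbol, as selenoproteins and synthesis factors on which Gpx4, the lipid peroxide reducing enzyme at the centre of ferroptosis defence, depends or with which it shares its synthesis. Each of the 10 symbols matched 1 gene ID in GENCODE M21. The data were 18 poly-A RNA-seq libraries of FACS-sorted CD8 T cells from the spleen of wild-type mice, 6 per diet, from a study on whether a transient high fat diet leaves these cells lastingly open to ferroptosis, cell death driven by iron and oxidised membrane lipids. ND mice ate normal diet for 12 weeks, HFD mice ate high fat diet for 12 weeks, and SW mice ate high fat diet for 6 weeks followed by normal diet for 6 weeks. Strain, sex and age are not given in the labels. Whether each library stands for its own mouse is not stated, so p-values measure the spread between these samples, which may be partly technical.

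Selenoproteins carry selenium as selenocysteine, an amino acid read from UGA, which elsewhere stops translation. Sephs2 makes the selenium donor selenophosphate and is itself a selenoprotein, Secisbp2 binds the SECIS hairpin in the 3′ untranslated region of selenoprotein messages, and Eefsec is the elongation factor that brings the selenocysteine transfer RNA to the ribosome. When selenium is short, messages in which the UGA lies well ahead of an exon junction can be destroyed by nonsense-mediated decay, and Gpx1 is the textbook case of a selenoprotein given up early. In T cells, Gpx4 protects against lipid peroxidation and Selenok supports calcium signalling.

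The stretch around the UGA is shown for the 2 genes whose levels differed most between diets, for Gpx4, for the most abundant of the 10 and for one with its UGA at the very end of the reading frame. The sequences are coding sequence from GENCODE M21 transcripts (GRCm38), 5′ to 3′ on the gene's own strand, with the selenocysteine codon in capitals.
Sephs2: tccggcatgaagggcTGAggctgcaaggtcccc
Gpx1: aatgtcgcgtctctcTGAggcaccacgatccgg
Gpx4: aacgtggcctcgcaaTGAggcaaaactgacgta
Selenow: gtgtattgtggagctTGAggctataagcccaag
Selenos: ccatcatctggcggcTGAaactaa
The Selenos stretch is shorter because it ends with the stop codon, 2 codons after the UGA. The Sephs2 codon lies on the minus strand of chromosome 7 at 127273731 to 127273733, in the only exon of the gene, and is codon 63. The Gpx1 codon lies on the plus strand of chromosome 9 at 108339451 to 108339453, in exon 1 of 2, and is codon 47. The Sephs2 gene (ENSMUSG00000049091) spans chr7:127271879-127274055 and the Gpx1 gene (ENSMUSG00000063856) chr9:108338903-108340343.

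The position of the UGA differed among the 8 selenoprotein genes. In Selenot the last exon junction of the message was 470 bases after the UGA, in Selenow 243, in Gpx1 105, in Selenof 78, in Msrb1 34 and in Selenok 5. In Selenos the UGA lay in the last exon, and Sephs2, with a single exon, has no junction at all. Of all 24 annotated mouse selenoproteins, 13 had the UGA more than 50 bases ahead of the last junction, against 4 of these 8. The base after the UGA, which is known to influence readthrough, was G in 5 of the 8 genes, among them Gpx1 and Sephs2, and A in the other 3; over all 24 it was G in 12, C in 6, A in 4 and T in 2.

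**Figure D1:**
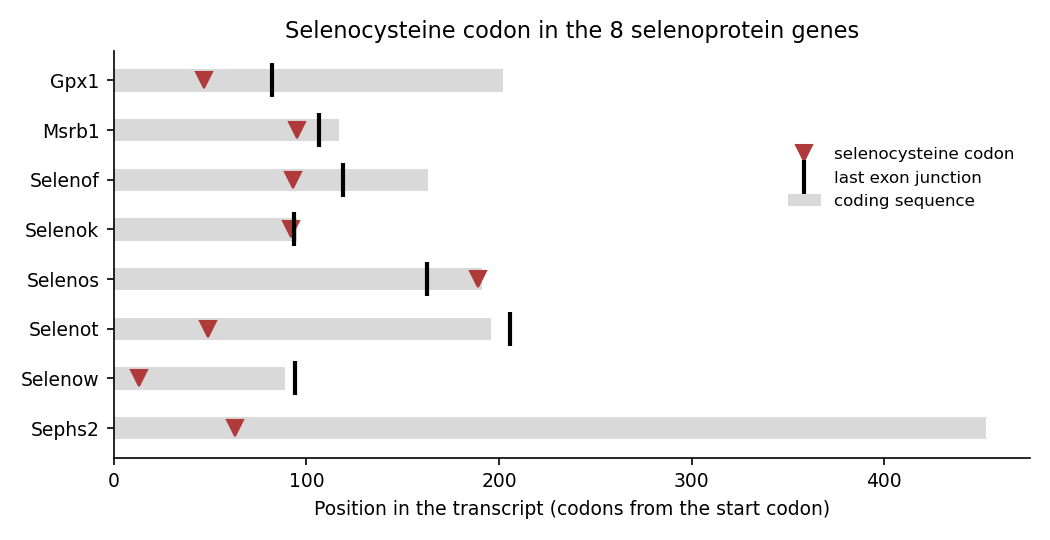
Position of the selenocysteine codon (triangle) and of the last exon junction (vertical line) along the transcripts of the 8 selenoprotein genes, in codons from the start codon; grey bars are the coding sequence. In Selenot and Selenow the junction lies beyond the coding sequence, in Selenos it lies before the selenocysteine codon, and Sephs2 has none.

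Levels between genes were compared in FPKM, the authors' values scaled to gene length and library depth. Selenow, a small redox protein, was by far the most abundant, at 280.6 ± 18.9 FPKM (SD over all 18 libraries), and its lowest library (250.1) lay above the highest of Selenot (82.8). Selenot, a thioredoxin-like protein of the endoplasmic reticulum (ER), followed at 72.4 ± 5.09, above Gpx4 at 58.3 ± 3.54 in 18 of 18 libraries. Selenok at 31.8 ± 3.01 and Selenos at 30.8 ± 2.40, both ER membrane proteins linked to protein degradation there, did not differ beyond their spread, with Selenok higher in 11 of 18 libraries. Selenof, which works with the glycoprotein folding sensor Uggt1, was at 26.1 ± 1.63.

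Below these came Secisbp2 at 16.7 ± 0.924 and Msrb1, a methionine sulfoxide reductase, at 16.2 ± 1.26, which were not ordered either (Secisbp2 higher in 10 of 18). Eefsec and Sephs2 had the same mean to 3 digits, 11.8, with Eefsec higher in 9 of 18. Gpx1, the cytosolic peroxidase that removes hydrogen peroxide, was the lowest of the 10, at 6.20 ± 1.24 FPKM, and it was below Sephs2 in 18 of 18 libraries. Its counts ran from 90 to 183 per library, against 213 to 489 for Sephs2 and 2279 to 3555 for Selenow, and Gpx1 had the largest spread: its residual SD on the log2 CPM scale was 0.23, against 0.17 for the median tested gene and 0.07 to 0.15 for the other 9.

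**Figure D2:**
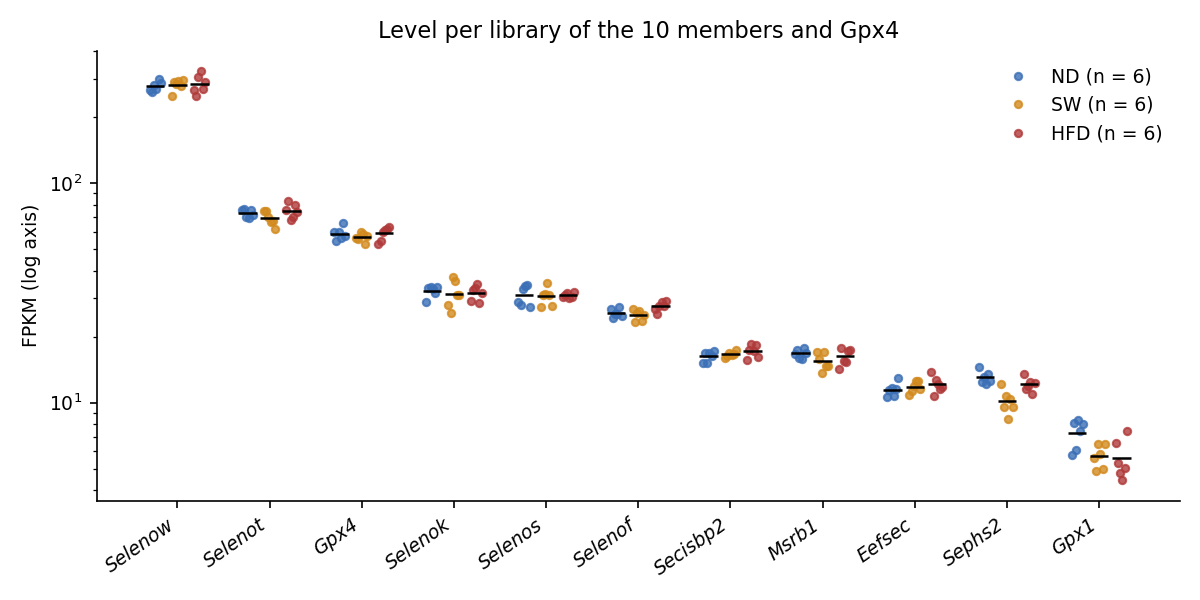
FPKM of the 10 genes and Gpx4 in each library on a log axis, ordered by mean; points are libraries coloured by diet and bars are the means of 6. The order runs from Selenow (280.6) to Gpx1 (6.20), whose libraries all lie below those of Sephs2.

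Total counts per library ran from 11947339 to 16398340. The CD8 T cell markers Cd8a, Cd8b1, Cd3e, Cd3d and Cd3g summed to 4167 to 4547 CPM in ND, 4153 to 4505 in SW and 4121 to 4557 in HFD. Red blood cell markers, of which 6 of 8 could be tested, summed to 14.8 to 40.1 CPM in ND, 29.9 to 86.3 in SW and 11.5 to 336.9 in HFD, highest in HFD 4, and all 6 had positive fold changes in HFD, none called (6 at an unadjusted p under 0.05). Monocyte, macrophage and neutrophil markers (6 of 8 tested, 0 called and 4 at an unadjusted p under 0.05 in HFD) summed to 18.2 to 27.0, 16.8 to 28.4 and 27.0 to 34.4 CPM in ND, SW and HFD. B cell markers (4 of 6 tested, Ighm called higher in HFD) summed to 473.8 to 522.7, 498.7 to 600.4 and 518.3 to 670.2 CPM. Over all genes 14.9% had an unadjusted edgeR p under 0.05 in HFD against ND, and 1.62% were called. No marker of these lists was at 0 in every library. In sorted bulk cells, fewer cells of a type and less RNA per cell cannot be told apart.

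Diet comparisons used counts scaled to library size (CPM) and the edgeR quasi-likelihood test over 13690 genes, all 18 libraries in 1 fit, with Benjamini-Hochberg adjustment and a call at an adjusted p under 0.05. All 10 genes passed the filter on low counts. In the test for any difference among the 3 diets 1 of the 10, Sephs2, was called, against a background of 0.898% of all genes. No member was called between HFD and ND, where 1.62% of all genes were (0.665% higher and 0.957% lower in HFD). None was called between SW and ND, against 0.0146% of all genes (0.0073% higher and 0.0073% lower in SW), or between SW and HFD, against 0.124% (0.0584% higher and 0.0657% lower in SW). No member had groups without overlap in CPM in any of the 3 comparisons, against 1.67%, 0.716% and 0.782% of all genes. At an unadjusted p under 0.05 the members were 1, 2 and 2 of 10 in these comparisons, against 14.9%, 6.81% and 11.1% of all genes, and 3 of 10 against 13.3% for any diet difference. DESeq2 called 0, 1 and 0 of the 10, against 3.44%, 0.38% and 0.804% of all genes, and limma-voom 0, 1 and 0, against 2.72%, 0.212% and 0.0584%; the 1 was Sephs2 in both.

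Sephs2 was lowest in SW. Its CPM in the ND libraries were 30.6, 26.4, 27.7, 25.5, 28.6 and 26.5 for replicates 1 to 6. In SW they were 25.7, 20.1, 22.6, 17.6, 22.1 and 19.98, and in HFD 28.4, 24.1, 25.02, 26.3, 23.0 and 25.9. Among the SW libraries, SW 1 alone reached into the range of the ND libraries, and the other 5 SW libraries lay below every ND and every HFD library. The HFD libraries 1, 4 and 6 lay within the ND range and the other 3 below it.

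The means were 27.5 ± 1.86 CPM in ND, 21.3 ± 2.76 in SW and 25.5 ± 1.86 in HFD (SD, n = 6). The edgeR test of any diet difference gave an adjusted p of 0.0493, the last of the 123 genes it called. The fold change of SW against ND was -0.37 ± 0.08 on the log2 scale (SE; edgeR adjusted p = 0.113, rank 13 of 13690 by p). This is 0.775 times the ND level with a 95% interval of 0.689 to 0.870. The SW libraries below the ND mean were 6 of 6. SW against HFD was -0.26 ± 0.08, or 0.838 times with an interval of 0.746 to 0.942 (edgeR adjusted p = 0.234), with 5 of 6 SW libraries below the HFD mean. HFD against ND was -0.11 ± 0.08, with an interval of 0.824 to 1.04 times (edgeR adjusted p = 0.547).

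**Figure D3:**
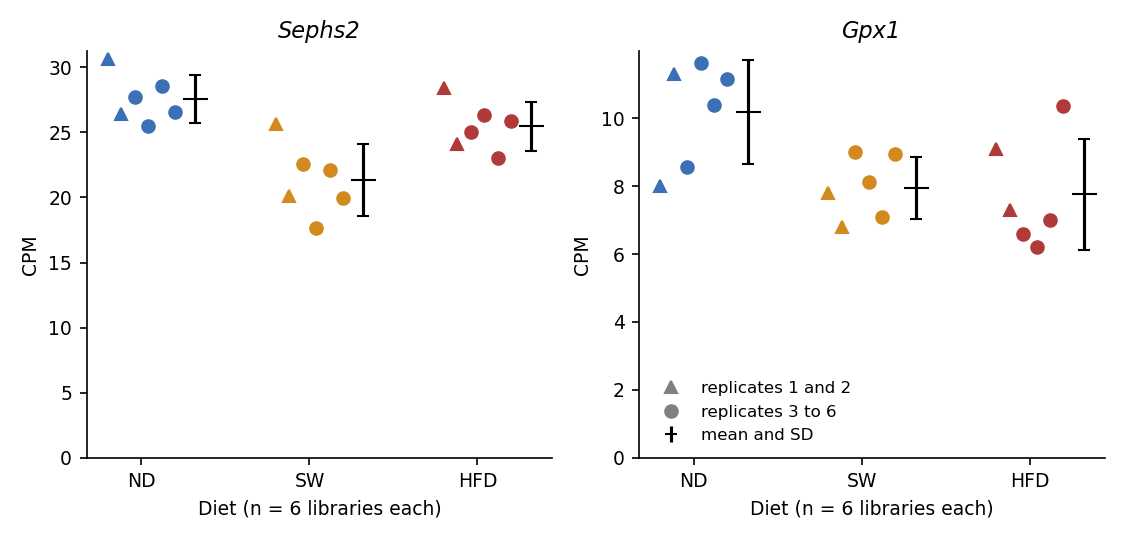
CPM of Sephs2 (left) and Gpx1 (right) in every library by diet, from 0, with the mean and SD of 6 libraries beside the points; triangles are replicates 1 and 2, circles replicates 3 to 6. Sephs2 is lowest in SW (mean 21.3 against 27.5 in ND and 25.5 in HFD), and Gpx1 is lower in SW (7.96) and HFD (7.76) than in ND (10.2) with overlapping libraries.

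The Sephs2 call stood at the threshold. In the edgeR test of any diet difference without 1 library it held in 3 of 18 fits, those without SW 1, HFD 1 or HFD 5, and adjusted p ran from 0.0149 to 0.104 (the highest without SW 4). SW against ND was called in 1 of 18 fits without 1 library, where edgeR adjusted p ran up to 0.306. In the other alternatives it was called in 6 of 15. The 1 fit was that without SW 1 (edgeR adjusted p = 0.0339), the SW library with the highest Sephs2 level. A larger difference without that library was fixed in advance. With all 18 libraries SW against ND passed in DESeq2 (adjusted p = 0.0115) and in limma-voom (0.0331). Without the filter on low counts edgeR gave an adjusted p of 0.0366, and with the replicate sets as a factor 0.0342. The size hardly moved: over the 33 alternatives the fold change of SW against ND lay between -0.42 and -0.32 on the log2 scale. It was -0.33 ± 0.15 (SE) within replicates 1 and 2 and -0.39 ± 0.10 within replicates 3 to 6, and it was -0.40 ± 0.08 with the red blood cell marker level as a covariate (edgeR adjusted p = 0.0349). With that covariate HFD against ND was -0.20 ± 0.09 (edgeR adjusted p = 0.383).

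**Figure D4:**
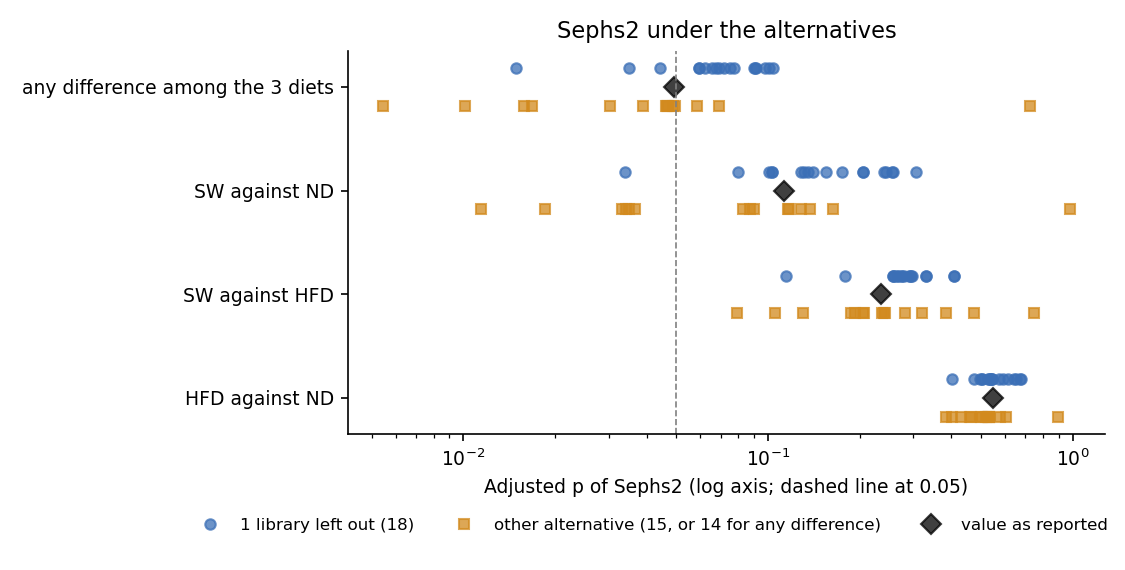
Adjusted p of Sephs2 on a log axis in each comparison, for the value as reported (diamond), 18 fits without 1 library (circles) and the other alternatives (squares); the dashed line is 0.05. Values of the test for any diet difference lie on both sides of the line, and those of HFD against ND all lie above it, from 0.383.

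Gpx1 had the lower levels in both groups that had eaten high fat diet, without passing the test. Its CPM in ND replicates 1 to 6 were 8.01, 11.3, 8.58, 11.6, 10.4 and 11.2. In SW they were 7.80, 6.81, 8.996, 8.11, 7.08 and 8.94, and in HFD 9.10, 7.29, 6.59, 6.20, 7.002 and 10.4. ND 2, 4, 5 and 6 were above every other library, ND 1 and ND 3 lay among the SW libraries, and HFD 6 stood almost level with ND 5.

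The mean was 10.2 ± 1.53 CPM in ND, 7.96 ± 0.915 in SW and 7.76 ± 1.62 in HFD (SD, n = 6). HFD against ND was -0.39 ± 0.14 on the log2 scale (SE), 0.763 times with a 95% interval of 0.629 to 0.924 (edgeR adjusted p = 0.149). The HFD libraries below the ND mean were 5 of 6. SW against ND was -0.36 ± 0.14, 0.781 times with an interval of 0.644 to 0.947 (edgeR adjusted p = 0.558), with 6 of 6 SW libraries below the ND mean. The 2 comparisons share the ND libraries. SW against HFD was 0.04 ± 0.14, with an interval of 0.843 to 1.245 times.

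Gpx1 was not called by any of the 33 alternatives in any comparison. Its fold change of HFD against ND ran from -0.49 to -0.23 and that of SW against ND from -0.42 to -0.30, below 0 in all of them. Red cells also carry Gpx1. Pearson's r of Gpx1 with the red cell marker level over the 18 libraries was -0.25, as a description. Over the 10 members that r ran from -0.43 (Msrb1) to 0.48 (Selenof). With the red cell markers as a covariate Gpx1 in HFD against ND was -0.41 ± 0.16 (SE; edgeR adjusted p = 0.281). The part of red cell RNA in the values of Gpx1, Selenof or the other members was not tested. Selenow and Selenoh, whose messages are also known to fall when selenium is short, were not called either: Selenow was at 0.03 ± 0.06 and Selenoh at 0.03 ± 0.08 in HFD, and at 0.02 ± 0.06 and -0.08 ± 0.08 in SW, against ND. Whether selenium supply had a part in these levels was not tested.

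The remaining 8 genes showed no called difference. Their 24 fold changes ran from -0.13 to 0.09 on the log2 scale, with edgeR adjusted p from 0.305 to 0.998. The 95% intervals reached at most down to 0.822 times (Msrb1, SW against ND) and up to 1.16 times (Eefsec, HFD against ND). The median fold change of all 10 members was 0.01, -0.04 and -0.04 for HFD against ND, SW against ND and SW against HFD, beside 0.008, 0.002 and -0.004 over all tested genes.

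**Figure D5:**
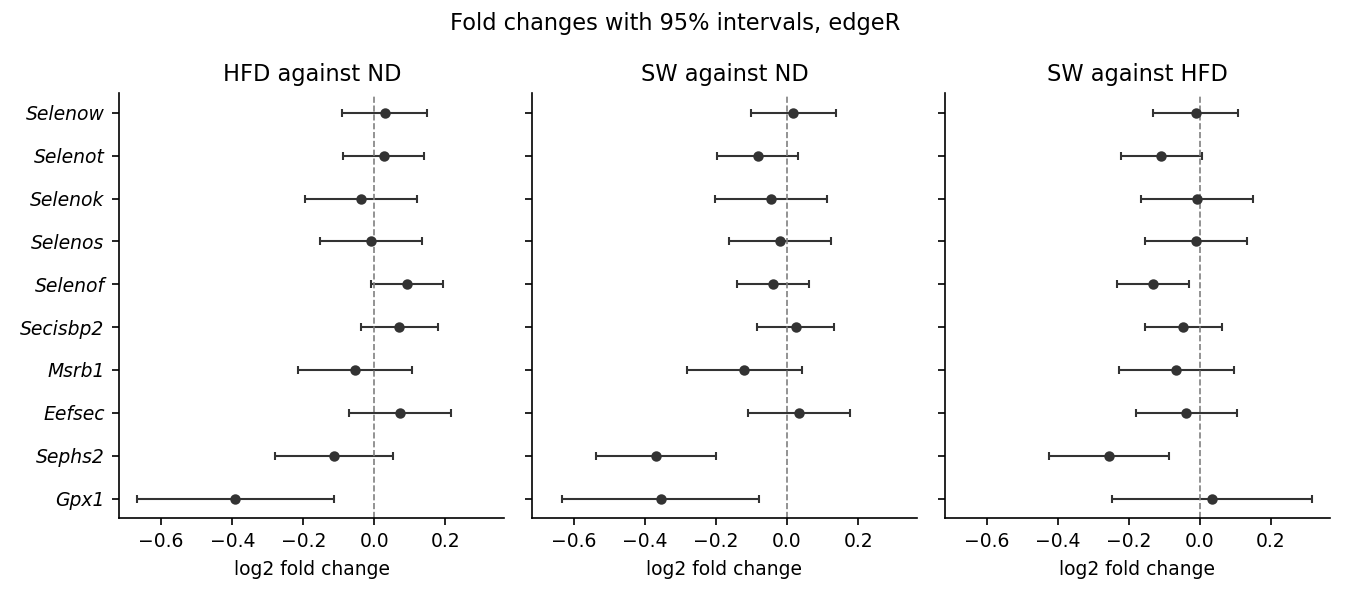
Log2 fold changes of the 10 genes in the 3 comparisons with 95% intervals from the edgeR fit, ordered by level. Intervals that leave out 0 are those of Gpx1 in HFD and SW against ND, Sephs2 in SW against ND and HFD, and Selenof in SW against HFD.

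Among the ER selenoproteins, Selenof had the smallest p. Its CPM ranged from 137.7 to 154.5 in ND, 130.7 to 150.4 in SW and 140.6 to 164.0 in HFD, with medians of 143.4, 142.2 and 154.4. The SW and HFD libraries overlapped, and SW against HFD was -0.13 ± 0.05 (SE; edgeR adjusted p = 0.305), with SW below the HFD mean in 6 of 6 libraries. Selenot, at 243.4 ± 10.2 CPM in ND, 229.9 ± 17.7 in SW and 247.9 ± 18.1 in HFD (SD, n = 6), was at -0.11 ± 0.06 in the same comparison (edgeR adjusted p = 0.469). Selenok and Selenos were within 0.05 of 0 on the log2 scale in all 3 comparisons of the full fit. Within replicates 1 and 2 Selenok was at -0.23 ± 0.10 (SE) in SW against ND and -0.20 ± 0.10 in SW against HFD. Within replicates 3 to 6 it was at 0.03 ± 0.07 and 0.09 ± 0.07. Selenos, which recruits the extraction ATPase Vcp to the ER membrane, was at 44.2 ± 4.74, 43.6 ± 4.06 and 43.9 ± 1.07 CPM in ND, SW and HFD.

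Of the factors that read the UGA, Secisbp2 was at 72.9 ± 4.10 CPM in ND, 74.2 ± 2.18 in SW and 76.6 ± 5.00 in HFD (SD, n = 6), and Eefsec at 31.1 ± 2.27, 31.9 ± 1.94 and 32.7 ± 2.87. Sephs2 was thus the one of the 3 synthesis factors with a called difference; that it differs from the other 2 was not tested. Msrb1 was at 20.4 ± 0.925, 18.8 ± 1.67 and 19.7 ± 1.65 CPM, with -0.12 ± 0.08 (SE) in SW against ND (edgeR adjusted p = 0.860). Selenow was at 197.5 ± 9.85, 199.8 ± 10.9 and 201.4 ± 19.9 CPM. Gpx4 itself had 98.6 ± 6.56, 94.6 ± 3.44 and 98.1 ± 7.35 CPM, and its fold changes lay between -0.06 and -0.01.

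Selenow, Selenok and Selenot, and Gpx4 beside them, differed in level between sets of replicate numbers. The labels do not say what the numbers mark; the split of replicates 1 and 2 from 3 to 6 was taken from earlier results of these data, so its values are a description. Selenow averaged 187.5 ± 10.2 CPM in the 6 libraries of replicates 1 and 2 and 205.6 ± 10.8 in the 12 others (SD), and Selenok 53.9 ± 5.35 and 60.2 ± 4.47. Gpx4 averaged 92.6 ± 4.04 and 99.4 ± 5.52 CPM, a log2 shift of 0.10 ± 0.04 (SE). Selenot went the other way, at 254.2 ± 9.13 and 233.4 ± 15.5. Each diet holds 2 and 4 such libraries. For Selenot the shift of -0.12 ± 0.04 (SE) between the sets stands beside -0.11 ± 0.06 for SW against HFD. With the sets as a factor, SW against HFD was -0.11 ± 0.04 (SE; edgeR adjusted p = 0.230).

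Over the 45 pairs of members, Pearson's r of log2 CPM across the 18 libraries ran from -0.57 (Selenow and Selenot) to 0.54, with a median of 0.06; these values share the libraries and their depth and are given as a description. Within diet and replicate set the median was 0.03. Over 18 libraries the genes most like Sephs2 were Bcl2l1 (r = 0.86), an anti-apoptotic BCL2 relative, Vhl (0.86), which marks HIF proteins for degradation, Triap1 (0.82), Zfp574 (0.81) and Zfp622 (0.79). Those most like Selenow were Ppp1r14b (0.88), the septin gene Sept1 (0.87), Ap2s1 (0.86), Tmsb10 (0.84) and Dnajc19 (0.84).

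Of the 16 other mouse selenoproteins 10 passed the filter on low counts, and edgeR called 0 of them in each comparison; at an unadjusted p under 0.05 there were 2 in HFD against ND, 0 in SW against ND and 1 in SW against HFD, beside the 14.9%, 6.81% and 11.1% of all genes, which is also the background for the lists that follow. Gpx2 and Dio3 had no counts in any library. The 2 with the smallest p in the test of any diet difference were Selenon, an ER calcium regulator, at 3.13 ± 0.595 CPM with ND and 4.53 ± 0.412 with HFD (SD, n = 6), a fold change of 0.53 ± 0.16 (SE), and Selenoo, a mitochondrial AMP transferase, at 21.2 ± 2.11 and 24.2 ± 1.42 with 0.19 ± 0.08. Neither was called, with edgeR adjusted p of 0.0921 and 0.221 in HFD against ND.

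Of 12 genes of selenocysteine synthesis and selenium supply, all tested, 0 were called by edgeR in any comparison, with 1, 0 and 0 at an unadjusted p under 0.05 and medians of -0.01, 0.00 and -0.01. The 1 was Scly, the lyase that recovers selenium from selenocysteine, at 26.4 ± 2.50 CPM in ND, 28.2 ± 2.86 in SW and 31.1 ± 3.33 in HFD (SD, n = 6), or 0.24 ± 0.08 (SE) in HFD against ND. Sepsecs, which converts the transfer RNA to its selenocysteine form, was at -0.14 ± 0.08 in HFD against ND.

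Of 8 ER partners of Selenos, Selenok and Selenof, 7 were tested and 0 called in any comparison, with 1, 0 and 0 at an unadjusted p under 0.05. Syvn1, the ubiquitin ligase of ER-associated degradation, was at -0.16 ± 0.07 (SE) in HFD against ND, and Uggt1, the partner of Selenof, at 0.12 ± 0.08. Uggt1 was at -0.15 ± 0.08 in SW against HFD (edgeR adjusted p = 0.474), where Selenof was at -0.13 ± 0.05. Of the 7 tested partners 3 were above 0 and 4 below 0 in that comparison. A link between Uggt1 and Selenof was not tested.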

How the data were processed

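CD8 T cells of mouse spleen on 3 diets were measured by poly-A RNA-seq, 6 libraries a diet, grouped by the diet in the labels. The authors deposited 1 file of unnormalized gene counts and 1 of FPKM values per library; the FPKM rescale the counts by gene and library. Per the submitters' processing notes, fastp and the builds GRCm38 and mm10 belong to the pipeline; aligner, counter and strandedness were not given in the sources used here. Symbols, coordinates and coding sequences came from GENCODE M21 (GRCm38), which matched 52073 of 56748 gene IDs and may differ from the authors' annotation.

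Counts were scaled by TMM and tested with edgeR 4.0.16 (quasi-likelihood F test, filterByExpr, R 4.3.3) over 13690 genes, with no replicate block, and adjusted by Benjamini-Hochberg over all of them. The code was tested on simulated data. DESeq2 1.42.0, limma 3.58.1, other scalings and filters, subsets and leaving out each library were alternatives. Total counts ran from 11947339 to 16398340; Gpx1 had the fewest counts of the members, 90 to 183 per library.

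Members and lists were chosen with earlier results of these data known. All members and Gpx4 are named. From each list the called genes are named, otherwise the 2 tested genes with the smallest p for any diet difference, and for the most abundant member and the one with the smallest such p the 5 genes most correlated with it, without predicted gene models.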

Additional observations from a re-analysis of the deposited data

Results flagged for a closer look

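Selenow in SW had 1 library far below the others. SW 1 was at 178 CPM and the next lowest SW library at 199.7, a gap of 0.743 of the range of the 6 libraries. Of 33 groups of libraries (10 members and Gpx4 in 3 diets) it was the 1 with such a gap; chance gives about 1 in 20 groups. SW 1 is also the SW library with the highest Sephs2 level. Leaving out the highest library lowers the SW mean in any case, so a larger difference without it was fixed in advance. Without SW 1 the Sephs2 difference between SW and ND was -0.42 ± 0.08 on the log2 scale (SE; edgeR adjusted p = 0.0339). Of the 18 fits without 1 library this was the 1 that passed.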

How the results depend on the processing

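Between SW and ND the number of members called was 1 (Sephs2) in place of 0 without a filter on low counts, in DESeq2, in limma-voom, with the replicate sets as a factor and with the red blood cell markers as a covariate, and 0 to 1 when 1 library was left out. For any diet difference it was 0 in place of 1 with scaling by library size only, with replicates 3 to 6 only and with replicates 1 and 2 only, and 0 to 1 without 1 library. Of the 30 fold changes of members, 5 had an unadjusted p under 0.05; 2 had with replicates 1 and 2 only, 5 to 6 without 1 library, and 7 each with the replicate block, the replicate sets as a factor, limma-voom and the red blood cell covariate. Over 33 alternatives 56 of 990 member fold changes differed in sign from the reported value, 0 of them where either p was under 0.05. The cause of these shifts was not tested.

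Same-numbered libraries deviated together in part: 7 of 18 pairs had a correlation over 0.1 (range -0.03 to 0.22), all 6 pairs of replicates 1 and 2 among them but 1 of 12 pairs of replicates 3 to 6. As not every pair passed and 5 of 18 libraries correlated best with their own number, the numbers were not treated as pairing the libraries. With the replicate block 1 member, Sephs2, was called between SW and ND (edgeR adjusted p = 0.0186), 0 between HFD and ND, 0 between SW and HFD and 1 for any diet difference; over all genes it called 598 for HFD against ND in place of 222, 49 in place of 2 for SW against ND, 138 in place of 17 for SW against HFD, and 469 in place of 123 for any difference.

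DESeq2 called 471, 52, 110 and 427 genes in the same order, and limma-voom 372, 29, 8 and 256. Over all alternatives that kept 18 libraries the lowest counts were 89, 0, 1 and 77. Without 1 library the counts ran from 89 to 301, 0 to 16, 0 to 44 and 62 to 220.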

Other observations

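The selenium-free arm of the same redox chemistry was measured in 16 of 18 genes of the glutathione and thioredoxin systems. edgeR called 0 of them in each comparison, with 0, 0 and 2 at an unadjusted p under 0.05 in HFD against ND, then SW against ND and SW against HFD, beside 14.9%, 6.81% and 11.1% of all genes. The 2 were Prdx2, a peroxiredoxin that removes hydrogen peroxide, at 63.0 ± 3.94 CPM in ND, 62.4 ± 5.43 in SW and 68.0 ± 3.57 in HFD (SD, n = 6), and Msrb2, the mitochondrial relative of Msrb1, at 8.17 ± 1.85, 8.44 ± 1.33 and 6.79 ± 0.973. In SW against HFD they were at -0.12 ± 0.06 and 0.31 ± 0.15 on the log2 scale (SE; edgeR adjusted p of 0.442 and 0.433).

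The summed level of the 10 members was 851 ± 19.9 CPM in ND, 826 ± 16.4 in SW and 867 ± 18.9 in HFD (SD, n = 6). The HFD libraries (845.9 to 897.3) and the SW libraries (799.6 to 846.3) overlapped by a narrow margin; no test was made of this sum, in which Selenot, Selenow and Selenof hold the largest shares.

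Markers of other lymphocytes were also summed. CD4 T cell markers were at 10.7 to 15.97 CPM in ND, 9.68 to 16.5 in SW and 15.2 to 32.4 in HFD, with Ctla4 called higher in HFD than in ND. NK cell markers were at 101.6 to 121.1, 91.9 to 133.0 and 101.7 to 126.5 CPM. Nearly all of that sum was Eomes, with a mean of 109 CPM over all libraries, against 2.07 for Klrb1c and 0.458 for Ncr1. Plasma cell markers were at 33.2 to 44.0, 33.0 to 48.0 and 33.9 to 59.4 CPM. Most of that sum was Xbp1, with a mean of 33.3 CPM over all libraries, against 6.18 for Jchain, 0.272 for Sdc1 and 0.0438 for Mzb1. Jchain averaged 3.04 CPM in ND, 6.26 in SW and 9.24 in HFD, and Xbp1 33.3, 31.9 and 34.8. The part of these other lymphocytes in the member values was not tested.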
